A study of Mus musculus with 11 samples.

Results

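The clustered protocadherins are a family of cell surface adhesion proteins of the cadherin superfamily, encoded in 3 neighbouring gene clusters named alpha, beta and gamma. All symbols in the raw count table that start with Pcdha, Pcdhb or Pcdhg followed by a letter or digit were taken, which gave 59 of 24421 entries. Of these, 15 belonged to the alpha cluster (Pcdha1 to Pcdha12, Pcdha7-g, Pcdhac1 and Pcdhac2), 22 to the beta cluster (Pcdhb1 to Pcdhb22) and 22 to the gamma cluster (12 of type A, 7 of type B and 3 of type C). The rule uses symbols only.

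The libraries are RNA-seq of the main olfactory epithelium (MOE), taken whole, which is the nasal tissue that holds the olfactory sensory neurons (OSNs), of mice in which the genes from Taar2 to Taar9 were intact or deleted. The groups were 3 wild type libraries with the cluster on both chromosomes, 4 heterozygous libraries with it deleted on 1, and 4 homozygous libraries with it deleted on both. The Taar genes lie on chromosome 10 and the protocadherin clusters on chromosome 18. All libraries are labelled C57BL/6 and P1-P2, whereas the study's reporting form gives an older age and a background mixed with 129 for this line, which was not settled here. No transgene or Cre is named for these libraries, and the labels give neither sex nor litter. The study describes the groups as mice of the 3 genotypes but does not say whether each library is a separate animal, so p-values measure the spread between libraries, which may be partly technical.

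In most neurons, each cell turns on a small and largely random choice of alpha, beta and gamma promoters, which are bound by CTCF and cohesin, and the mixture of proteins gives the cell a surface identity used to tell its own branches from those of other cells. An alpha or gamma transcript joins a variable first exon, which codes for the extracellular cadherin repeats, to constant exons shared by the whole cluster, whereas each beta gene is a single exon without a constant part. The C-type genes at the ends of the alpha and gamma clusters are less subject to this random choice. In OSNs, clustered protocadherins are known for their part in the arrangement of axons in the glomeruli of the olfactory bulb.

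Total counts ran from 9239866 to 14632525 per library, and the counts of Taar2 to Taar9 summed to 87 to 119 in wild type, 31 to 96 in heterozygous and 1 to 3 in homozygous libraries. On the first principal component (41.7% of the variance, computed without the protocadherins) the libraries fell into 2 sets that each held all 3 genotypes. Set 1 held the first 2 wild type, the last 2 heterozygous and the first 2 homozygous libraries by number, and the remaining 5 libraries formed set 2. Levels of Meg3, a nuclear RNA, ran from 218 to 517 CPM (counts scaled to a common library total) in set 1 and from 1212 to 1528 in set 2. All 10 marker genes of mature OSNs were detected, and their summed level ran from 1423 to 2574 CPM. The tissue also held other cell types, among them mesenchyme, cartilage and bone (7598 to 19940 CPM over 8 markers), so the levels below are averages over all of them. In such bulk tissue fewer cells with a transcript and less of it per cell cannot be told apart.

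Clustered protocadherins took 0.0302% to 0.0474% of the counts of a library, and 55 or 56 of the 59 were detected in each. Levels of different genes were compared per kilobase of exonic sequence that no other gene on the same strand of the annotation shares, since the constant exons of the alpha and gamma clusters cannot be assigned to a single gene. On that scale the alpha cluster had 1.30 ± 0.181 CPM per kb (SD, n = 11 libraries), the beta cluster 1.64 ± 0.167 and the gamma cluster 2.94 ± 0.363. Bases that only an antisense gene overlaps were kept, and for Pcdhgc3 1821 of these 3380 bases, and for Pcdhga10 0 of 2613, are free of other genes on both strands. The gamma cluster was thus the most abundant per length, and without its most abundant gene, Pcdhgc3, it had 1.72 ± 0.235 CPM per kb. With all exonic bases counted instead, the levels were 0.581, 1.62 and 1.68 CPM per kb, so that beta and gamma were close and the gap between alpha and beta was wider.

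**Figure D1:**
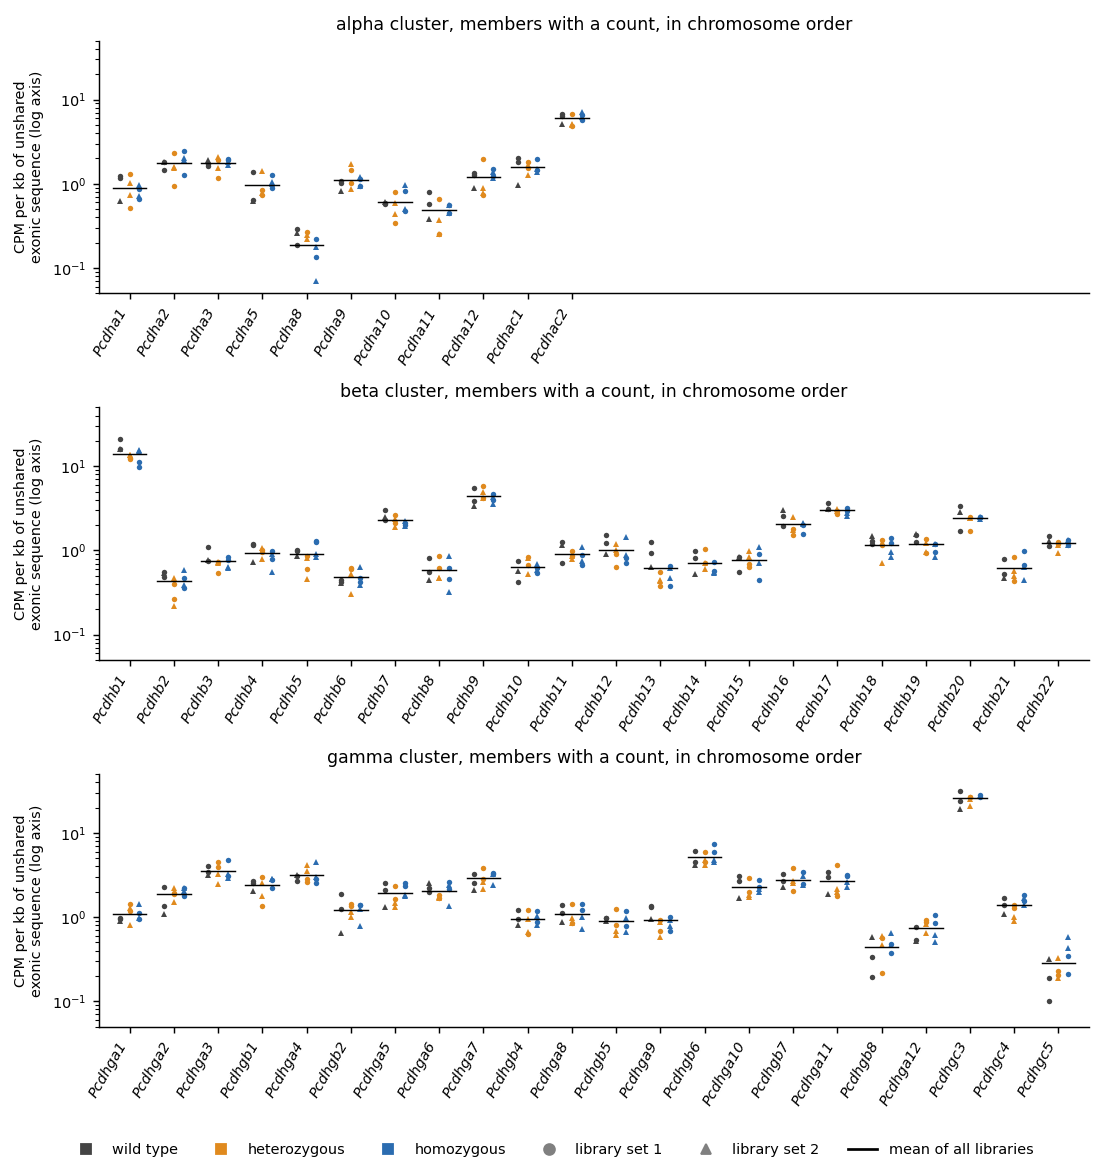
Level of each clustered protocadherin with a count and an annotated length, in the order of the genes along the chromosome (horizontal axis), as CPM per kb of unshared exonic sequence on a log axis. Each point is a library (colour for genotype, shape for library set; values of 0 cannot be drawn) and the bar is the mean of the 11 libraries. Pcdhgc3, Pcdhb1 and Pcdhac2 stood above the other genes of their clusters.

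Within each cluster 1 gene stood above the rest in every library. These were Pcdhgc3, the first of the gamma C-type genes, at 25.8 CPM per kb on average, Pcdhb1, the gene at the start of the beta cluster, at 14.2, and Pcdhac2, the last gene of the alpha cluster, at 5.97. They took 44.5%, 24.5% and 39.8% of the counts of their clusters. The next highest per kb were Pcdhgb6 (5.18) and Pcdhb9 (4.41), a variable gamma gene and a beta gene. The medians over the tested genes of a cluster were 1.15 CPM per kb for alpha, 0.921 for beta and 1.90 for gamma. The place of a gene within its cluster was compared with its level. Spearman's rho between the order along the chromosome and the level per kb was 0.18 over 10 alpha genes, 0.22 over 22 beta genes and -0.22 over 22 gamma genes, given as a description since the genes share libraries.

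Pcdhgc3 (chromosome 18, 37806364 to 37841873, mm10) is one of the 3 gamma C-type genes, whose variable exons lie next to the constant exons. It had 81.4, 106 and 64.7 CPM in the 3 wild type libraries, in order of replicate number as in all lists below. The heterozygous libraries had 84.8, 69.9, 89.7 and 91.3 CPM, and the homozygous ones 90.1, 96.2, 92.6 and 93.4. The homozygous libraries lay close together, within the range of the wild type libraries. Means were 83.9 ± 20.5 (SD, n = 3), 83.9 ± 9.74 (SD, n = 4) and 93.1 ± 2.51 CPM (SD, n = 4). The log2 fold change of homozygous against wild type was 0.15 (SE 0.16), and it was -0.0068 without wild type replicate 3, the lowest library. In the annotation the antisense gene BC037039 overlaps Pcdhgc3, and the strand setting of the counting was not stated, so reads of the 2 genes may not be separated.

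The other gamma C-type genes were far less abundant per length, with 1.38 CPM per kb for Pcdhgc4 and 0.284 for Pcdhgc5. Pcdhgc4, which is known to be needed for the survival of neurons after birth, had 4.82, 5.85 and 3.79 CPM in wild type, 3.47, 3.14, 4.83 and 4.50 in heterozygous and 5.38, 6.43, 5.80 and 4.82 in homozygous libraries. The lowest homozygous library lay just under the highest heterozygous one, and both overlapped wild type. Pcdhgc5 had 0.463, 0.882 and 1.45 CPM in wild type, 1.496, 0.863, 0.948 and 1.07 in heterozygous and 1.598, 0.982, 1.98 and 2.67 in homozygous libraries. It came from 173 counts in all, and homozygous replicate 2 lay inside the wild type range.

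Among the alpha C-type genes, Pcdhac2 (37143503 to 37187657), known as the alpha isoform of serotonergic neurons, had 19.6, 20.2 and 15.7 CPM in wild type, 15.1, 15.4, 20.5 and 14.9 in heterozygous and 17.5, 20.1, 18.8 and 21.3 in homozygous libraries. Pcdhac1 had 4.63, 5.21 and 2.50 CPM in wild type, 3.26, 4.31, 4.64 and 3.96 in heterozygous and 5.05, 3.71, 3.81 and 3.53 in homozygous libraries. For both genes the 3 genotypes overlapped. Together the C-type genes took 49.1% ± 2.45 (SD, n = 3), 48.7% ± 4.84 (SD, n = 4) and 49.2% ± 1.24 (SD, n = 4) of the alpha counts in wild type, heterozygous and homozygous libraries. They took 46.5% ± 1.90, 47.5% ± 4.07 and 48.5% ± 2.64 of the gamma counts. In both clusters the shares of the 3 genotypes overlapped.

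Of the variable alpha genes, Pcdha3 and Pcdha2 had the highest level per kb (1.76 and 1.74 CPM per kb), and Pcdha8 the lowest of those with more than a few counts (0.189). Pcdha2 ran from 2.35 to 6.14 CPM and Pcdha3 from 2.89 to 5.10 over all libraries. Pcdha4, Pcdha6 and Pcdha7 had 0 counts in all 11 libraries, which allows up to 3 counts in each library and covers counting error only. Pcdha4 lies between genes with counts in every library. Pcdha6 and Pcdha7 lie next to each other and are followed by Pcdha8, with 62 counts in all. In the GENCODE annotation 83.0% of the first exon of Pcdha4 is shared with other genes, whereas for Pcdha6 and Pcdha7 it is 8.86% and 13.6%. RefSeq lists a longer gene with a name ending in -g that starts at about the same place as Pcdha6 and as Pcdha7 and runs on to the gamma constant exons. Whether reads shared by such overlapping genes were dropped in the counting was not stated and was not tested, so these values are listed as 0 and not read as silence of the promoters. The entry Pcdha7-g had 5 counts, of which 1 was in wild type replicate 1, 1 in heterozygous replicate 3 and 3 in heterozygous replicate 4.

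Of the beta genes after Pcdhb1, Pcdhb9 (4.41 CPM per kb), Pcdhb17 (2.99) and Pcdhb20 (2.43) were the highest and Pcdhb2 (0.432) and Pcdhb6 (0.479) the lowest. Pcdhb17 ran from 11.9 to 17.0 CPM and Pcdhb9 from 10.3 to 17.7 CPM over the libraries, and Pcdhb6 from 1.16 to 2.42. As single exons, the beta genes can be told from each other well, with a median of 95.8% of their 51-base stretches found in no other gene. The value was 100% for Pcdhb1 and 35.9% for Pcdhb12, which an antisense gene overlaps. For alpha and gamma genes the medians were 39.2% and 52.6%, and the lowest value was 1.05% for Pcdhga10, which the antisense gene Gm26672 overlaps.

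Among the variable gamma genes, Pcdhgb6, Pcdhga3 (3.53 CPM per kb), Pcdhga4 (3.18) and Pcdhga7 (2.88) led, and Pcdhgb8, listed as a pseudogene in RefSeq, was the lowest of these (0.448). The level of Pcdhga4 was divided by only 1570 unshared bases, since 39.8% of its first exon is annotated as shared with Pcdhgb1. With all exonic bases counted it had 1.06 CPM per kb, below Pcdhgb7 (1.54). Pcdhgb6 ran from 10.7 to 19.2 CPM, with the highest value in homozygous replicate 1. Pcdhga3 ran from 6.51 to 12.5 CPM, Pcdhga7 from 6.46 to 11.9 and Pcdhga11 from 4.71 to 11.1. Of the type B genes, Pcdhgb7 ran from 5.24 to 10.05 CPM and Pcdhgb1 from 3.53 to 7.96. The low genes Pcdhga8, Pcdhgb4 and Pcdhgb8 ran from 1.81 to 3.62, 2.25 to 4.36 and 0.481 to 1.64 CPM. Type A and type B genes had close levels per length as groups, with 1.88 ± 0.254 and 1.83 ± 0.312 CPM per kb (SD, n = 11 libraries).

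The shares of single genes in their cluster varied between libraries. That of Pcdhb1 ran from 18.9% to 32.4% of the beta counts and that of Pcdhgc3 from 40.4% to 48.8% of the gamma counts. The spread beyond counting error was described by the biological coefficient of variation of the edgeR fit, which was 0.184 for Pcdhb1 and 0.169 for Pcdhgc3. Its medians were 0.279 over the 10 alpha, 0.235 over the 22 beta and 0.243 over the 22 gamma genes tested. The median was 0.242 over the 54 tested members and 0.227 over all tested genes.

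The 3 genotypes were then compared for each member. In edgeR's quasi-likelihood test 0 members had an adjusted p-value under 0.05 in any of the 3 comparisons, and the lowest was 0.996. Nor did the deleted Taar genes pass this test at their low counts. Between homozygous and wild type libraries, 4 of them were tested, 4 were under 0.05 before adjustment and 0 after it, and the lowest adjusted p-value of all genes, that of Taar6, was 0.173. A count of 0 members called therefore does not show that the members were alike in the genotypes. The 54 members that passed the filter on low counts were 10 alpha, 22 beta and 22 gamma genes. Those that did not pass were Pcdha4, Pcdha6, Pcdha7, Pcdha7-g and Pcdha8. Homozygous and heterozygous libraries were both compared with the same 3 wild type libraries, so these comparisons are not independent of each other.

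Of the 3 clusters, beta had the lowest median fold change in both comparisons with wild type. In homozygous against wild type libraries the median log2 fold change was -0.25 over the 22 beta genes. It was 0.096 over 10 alpha genes and 0.098 over 22 gamma genes, beside 0.015 over all 16574 tested genes. Lower were 17 of 22 beta, 3 of 10 alpha and 8 of 22 gamma genes, beside 47.2% of all genes. In heterozygous against wild type libraries the medians were -0.22 for beta, -0.089 for alpha and -0.028 for gamma, beside 0.0018 over all genes. There 17 of 22 beta, 8 of 10 alpha and 13 of 22 gamma genes were lower, beside 49.6% of all genes. In homozygous against heterozygous libraries the medians of beta, alpha and gamma were -0.0059, 0.19 and 0.13, beside 0.0062 over all genes. These are descriptions of single genes that share libraries, and the difference between the clusters was not tested. The medians moved when 1 library was left out. In homozygous against wild type libraries the beta median was -0.11 and the gamma median 0.20 without wild type replicate 2, the alpha median was 0.16 without wild type replicate 1, and without wild type replicate 3 the alpha and gamma medians were 0.011 and 0.0028, close to that of all genes. In heterozygous against wild type libraries the beta median was -0.098 without wild type replicate 2, and the gamma median ran from 0.055 without the same library to -0.19 without wild type replicate 3. The alpha median of that comparison was 0.031 without heterozygous replicate 4 and -0.30 without heterozygous replicate 3, where it lay below the beta median of -0.25. In homozygous against heterozygous libraries the alpha median was 0.034 without heterozygous replicate 4, the gamma median 0.048 without heterozygous replicate 2 and 0.28 without heterozygous replicate 3, and the beta median ran from -0.068 to 0.031.

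**Figure D2:**
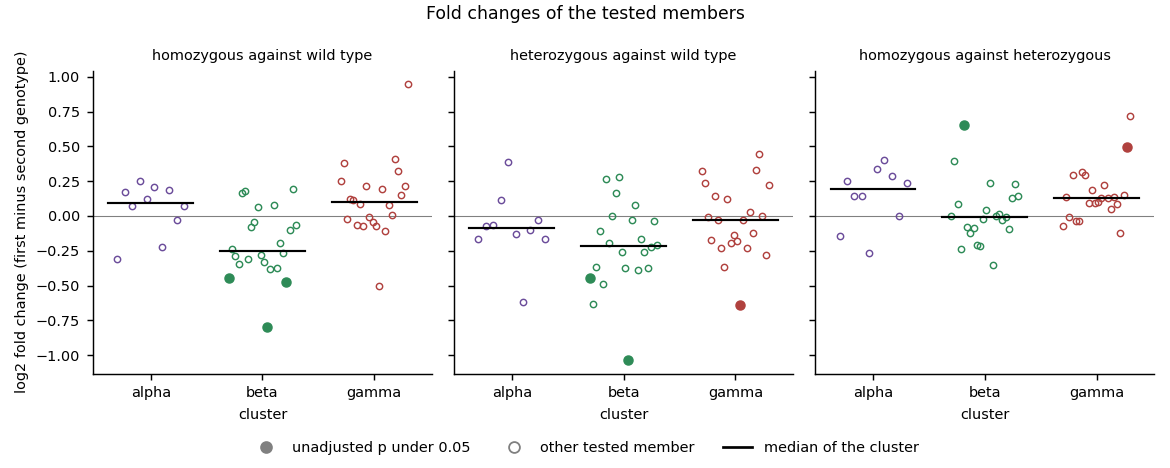
Log2 fold change (vertical axis) of the 10 alpha, 22 beta and 22 gamma genes tested, with each point a gene in chromosome order within its cluster. Filled points have an unadjusted p-value under 0.05 in edgeR's quasi-likelihood test, 0 passed after adjustment, and black bars are cluster medians (beta -0.25 and -0.22 against wild type in homozygous and heterozygous libraries).

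The summed level of the 22 beta genes was 166, 185 and 161 CPM in the wild type libraries. The 4 heterozygous libraries had 136, 150, 146 and 142 CPM, and the 4 homozygous ones 142, 134, 151 and 139. All 8 libraries with a deletion thus lay below all 3 wild type libraries. Of all single genes tested, 2.48% had all homozygous and 1.1% all heterozygous libraries below all wild type libraries. The share with both was not counted, for single genes or for sums. The means of the beta sum were 171 ± 12.4 (SD, n = 3), 143 ± 6.14 (SD, n = 4) and 142 ± 7.07 CPM (SD, n = 4), so that the heterozygous sum was 83.9% and the homozygous sum 82.8% of wild type. Within set 1 the means were 176, 144 and 138 CPM, and within set 2, with 1 wild type library, 161, 143 and 145. In both sets the means of both deletion genotypes lay below wild type, although in set 2 this rested on 1 wild type library.

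This separation rested partly on Pcdhb1. Without it the beta sum was 112, 144 and 120 CPM in wild type, 101 to 115 in heterozygous and 100 to 113 in homozygous libraries, and wild type replicate 1 overlapped both. Of the cell type markers, 12 lists were summed in the same way. In heterozygous against wild type libraries 12 of 12 overlapped, and in homozygous against wild type 11 of 12, the exception being immune genes (175 to 205 CPM against 144 to 157). Mature OSN markers summed to 1483 to 2574 CPM in wild type, 1583 to 2148 in heterozygous and 1423 to 1831 in homozygous libraries. Sustentacular cell markers summed to 1791 to 2629, 1344 to 2003 and 1181 to 2115 CPM, and skeletal muscle markers to 6.95 to 56.6, 15.9 to 1624 and 20.4 to 760 CPM. Of the erythrocyte markers, at least Hba-a1 was at 0 in all libraries. The part of these cell types in the beta level was not tested.

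**Figure D3:**
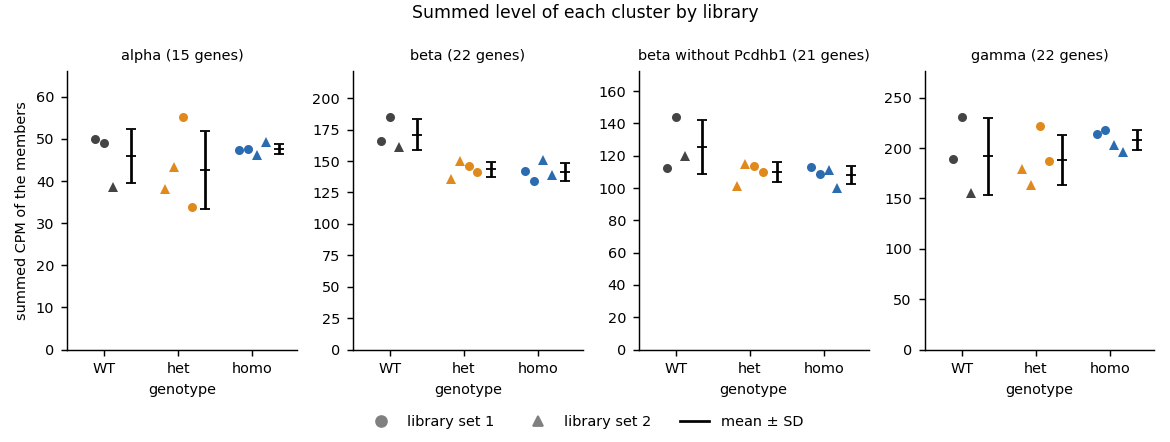
Summed CPM (vertical axis, from 0) of the alpha, beta and gamma genes and of the beta genes without Pcdhb1, by genotype (WT wild type, het heterozygous, homo homozygous). Points are libraries, with the shape for the library set, and black bars are mean ± SD. For beta the 8 libraries with a deletion lay at 134 to 151 CPM and the 3 wild type libraries at 161 to 185.

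The alpha sum was 50.04, 49.1 and 38.6 CPM in wild type, 38.1, 43.4, 55.2 and 33.8 in heterozygous and 47.3, 47.7, 46.2 and 49.2 in homozygous libraries. The gamma sum was 190, 231 and 155 CPM in wild type, 180, 163, 222 and 187 in heterozygous and 214, 218, 203 and 196 in homozygous libraries. In both clusters the 3 genotypes overlapped, and homozygous libraries varied least. Over the library sets, the gamma sum averaged 210 ± 17.8 CPM in set 1 (SD, n = 6) and 179 ± 20.5 in set 2 (SD, n = 5), the alpha sum 47.2 ± 7.13 and 43.1 ± 4.80, and the beta sum 153 ± 19.3 and 147 ± 10.3.

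In homozygous against wild type libraries 3 of 54 members (5.56%) had an unadjusted p-value under 0.05, all of them beta genes that were lower, beside 3.02% of all genes tested. After adjustment 0% of the genes tested passed. The members under 0.05 before adjustment changed when 1 library was left out. Without homozygous replicate 2 only Pcdhgc5 was (1.85%, beside 1.92% of all genes), and it was higher. Without wild type replicate 2 it was 3 members (5.56%, beside 3.02%), of which 1, Pcdhb1, was lower. With the replicate number as a block, 0 members (beside 1.73% of all genes) had an unadjusted p-value under 0.05 in the edgeR fit of all 3 genotypes. In that of homozygous and wild type libraries only, it was 2 members (3.70%), Pcdhb1 and Pcdhb13, beside 6.31% of all genes. Libraries of these 2 genotypes with the same number also share a library set, so this block is not a test of pairing. The homozygous libraries were all lower than the lowest wild type library for 3 members (5.56%), beside 2.48% of all genes, and above them for 0 members, beside 2.51% of all genes. These 3 were Pcdhb1, Pcdhb7 and Pcdhb19.

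Pcdhb1 (37264938 to 37267525) had 53.9, 41.0 and 41.4 CPM in wild type, 34.8, 34.9, 32.4 and 31.6 in heterozygous and 28.8, 25.4, 39.98 and 39.1 in homozygous libraries. All 8 libraries with a deletion lay below the wild type libraries, but homozygous replicates 3 and 4 came close to them. The share of all genes with this order was not counted. The log2 fold change was -0.45 (SE 0.18) in homozygous and -0.44 (SE 0.18) in heterozygous against wild type libraries. The unadjusted p-values were 0.0281 and 0.0293 in edgeR's quasi-likelihood test (adjusted 0.996 and 1). The values differed with the library set, a difference that was not tested. Within set 1 the means were 47.5, 32.0 and 27.1 CPM in wild type, heterozygous and homozygous libraries, and within set 2 they were 41.4 (n = 1), 34.9 and 39.5. Without wild type replicate 1, the highest library, the log2 fold change of homozygous against wild type was -0.31 (unadjusted p = 0.147 in edgeR's test). With the replicate block it was -0.48 (unadjusted p = 0.0507 in edgeR's test) in the fit of all 3 genotypes and -0.57 (unadjusted p = 0.0109) in that of these 2 genotypes.

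Pcdhb13 had 3.43, 4.65 and 2.34 CPM in wild type, 1.63, 1.65, 2.08 and 1.39 in heterozygous and 2.44, 1.42, 1.76 and 2.32 in homozygous libraries. The heterozygous libraries lay below wild type, and homozygous replicate 1 just above the lowest wild type library. Its log2 fold change was -0.80 (SE 0.31; edgeR's quasi-likelihood test, unadjusted p = 0.0229, adjusted 0.996) in homozygous and -1.04 (SE 0.31; edgeR's quasi-likelihood test, unadjusted p = 0.00577, adjusted 1) in heterozygous against wild type libraries. It came from 297 counts, and without wild type replicate 2 the first value was -0.53. Within set 1 the means were 4.04, 1.74 and 1.93 CPM, and within set 2 they were 2.34 (n = 1), 1.64 and 2.04.

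Pcdhb19 had 8.90, 10.9 and 11.3 CPM in wild type, 6.80, 8.79, 9.76 and 6.64 in heterozygous and 8.496, 6.76, 8.58 and 6.02 in homozygous libraries. Its log2 fold change was -0.47 (SE 0.21; edgeR's quasi-likelihood test, unadjusted p = 0.0461, adjusted 0.996) in homozygous and -0.38 (SE 0.21) in heterozygous against wild type libraries. The first was -0.40 in the blocked fit of these 2 genotypes (unadjusted p = 0.0824 in edgeR's test). For Pcdhb7 the wild type libraries had 7.97, 10.5 and 8.72 CPM, the homozygous ones 6.98, 7.42, 6.90 and 7.92, with a log2 fold change of -0.31 (SE 0.18). The gap of Pcdhb7 between the groups was thus small, with the highest homozygous value just under the lowest wild type value. Among members that were higher in homozygous libraries, Pcdhgc5 had the lowest unadjusted p-value (log2 fold change 0.94, SE 0.44; edgeR's quasi-likelihood test, unadjusted p = 0.0525, adjusted 0.996), and its libraries overlapped.

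**Figure D4:**
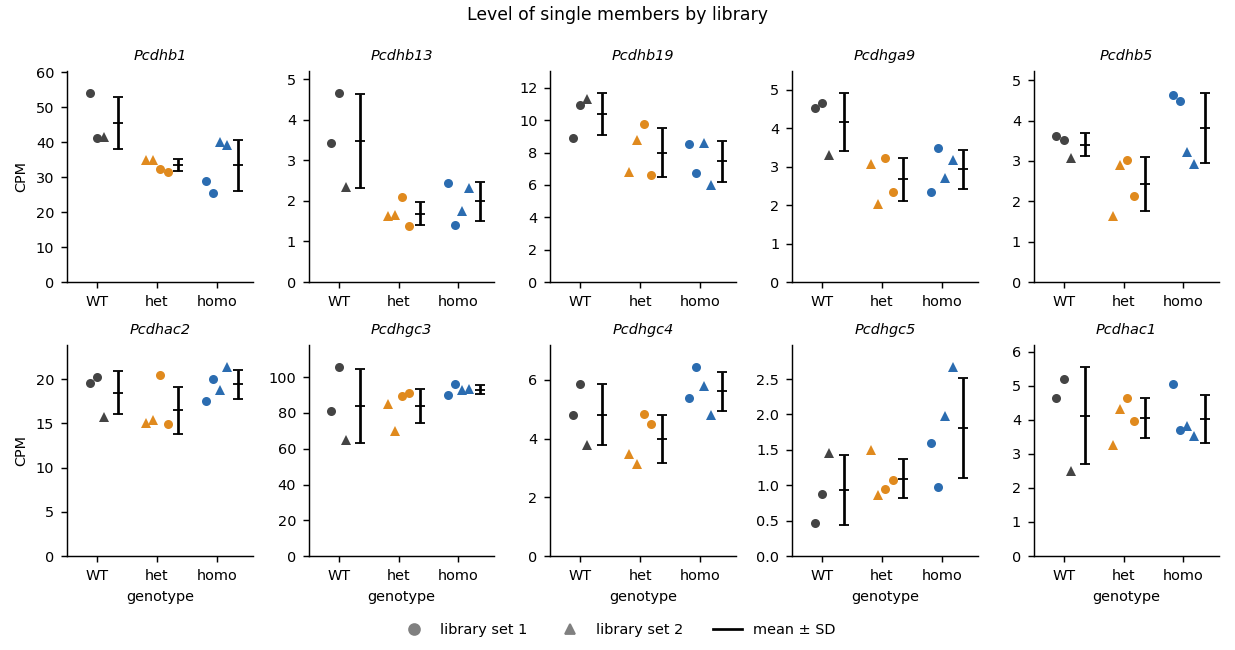
CPM (vertical axes, each from 0) of the 5 members with an unadjusted p-value under 0.05 outside the C-type genes and of the 5 C-type members, by genotype (WT wild type, het heterozygous, homo homozygous). Points are libraries, with the shape for the library set, and black bars are mean ± SD. Pcdhb1 had 25.4 to 39.98 CPM in the homozygous and 41.0 to 53.9 in the wild type libraries.

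In heterozygous against wild type libraries 3 members (5.56%) had an unadjusted p-value under 0.05, namely Pcdhb13, Pcdhb1 and Pcdhga9, all lower, beside 2.24% of all genes. After adjustment 0% of all genes passed. The heterozygous libraries were all lower than the lowest wild type library for 7 members (13.0%), beside 1.1% of all genes, and above them for 0 members, beside 1.41%. The 7 were Pcdhb1, Pcdhb2, Pcdhb3, Pcdhb5, Pcdhb13, Pcdhga6 and Pcdhga9, of which 5 are beta genes and 2 gamma A genes. Pcdhga9 had 4.54, 4.65 and 3.31 CPM in wild type, 3.06, 2.04, 3.22 and 2.36 in heterozygous and 2.36, 3.49, 2.71 and 3.18 in homozygous libraries. Its log2 fold change was -0.64 (SE 0.26; edgeR's quasi-likelihood test, unadjusted p = 0.0302, adjusted 1), and the highest heterozygous library lay just under the lowest wild type library. For Pcdhb2 the wild type libraries had 1.58, 1.36 and 1.53 CPM, the heterozygous ones 0.612, 1.33, 1.14 and 0.749, with a log2 fold change of -0.63 (SE 0.34).

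In homozygous against heterozygous libraries 2 members (3.70%) had an unadjusted p-value under 0.05, beside 0.561% of all genes, and both were higher in homozygous libraries. After adjustment 0% of all genes passed. The groups overlapped for each of the 54 members, so that 0 lay apart in either direction, beside 0.302% of all genes lower and 0.296% higher. Pcdhb5 had 3.61, 3.53 and 3.07 CPM in wild type, 1.63, 2.90, 3.03 and 2.14 in heterozygous and 4.63, 4.47, 3.23 and 2.93 in homozygous libraries. Its log2 fold change was 0.65 (SE 0.27; edgeR's quasi-likelihood test, unadjusted p = 0.0307, adjusted 1), with the highest values in the 2 homozygous libraries of set 1. Pcdhgc4 had a log2 fold change of 0.50 (SE 0.22; edgeR's quasi-likelihood test, unadjusted p = 0.0461, adjusted 1). Pcdhgc5 (0.72, SE 0.40; 0.48 without homozygous replicate 4) and Pcdhac2 (0.24, SE 0.16; 0.36 without heterozygous replicate 3) came next and were not under 0.05.

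Protocadherins outside the clusters were compared as relatives that share the cadherin repeats. Of 12 such genes, 0 passed edgeR's test in any comparison, and 1 of them, Pcdh10, was under 0.05 before adjustment, when heterozygous libraries were compared with wild type. Pcdh10, which marks glomerular subsets of OSN axons, had 21.8, 16.8 and 18.2 CPM in wild type, 46.8, 27.5, 40.9 and 13.4 in heterozygous and 29.4, 26.6, 20.8 and 23.9 in homozygous libraries. The heterozygous libraries spread from below to well above wild type (log2 fold change 0.77, SE 0.34; edgeR's quasi-likelihood test, unadjusted p = 0.0410, adjusted 1). Pcdh17 had 108 ± 13.98 CPM in wild type, 95.4 ± 13.4 in heterozygous and 99.995 ± 10.98 in homozygous libraries, and Pcdh19, the X-linked delta protocadherin of a human epilepsy, 30.2 ± 3.10, 27.7 ± 6.56 and 26.2 ± 2.84 (SD, n = 3, 4 and 4). Pcdh7 and Pcdh8, both delta protocadherins, had log2 fold changes of -0.20 (SE 0.13) and 0.29 (SE 0.20; 0.17 without wild type replicate 3) in homozygous against wild type libraries, and Pcdh15, a protein of sensory hair cells, -0.45 (SE 0.23) in homozygous against heterozygous libraries. The median of the list was -0.13 in homozygous and -0.15 in heterozygous against wild type libraries.

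Genes that shape or silence the clusters were compared next. Of 17 such genes 16 were tested (Wapl was not analysed here), and 0 passed or had an unadjusted p-value under 0.05 in any of the 3 comparisons in edgeR's test. Of the 16, 12 (75%) were lower in homozygous and 14 (87.5%) in heterozygous than in wild type libraries, beside 47.2% and 49.6% of all genes, with medians of -0.13 and -0.11 on the log2 scale. Ctcf, which folds the clusters into promoter to enhancer loops, had 141 ± 8.92 CPM in wild type, 130 ± 13.8 in heterozygous and 127 ± 8.25 in homozygous libraries (SD, n = 3, 4 and 4). Rad21, a cohesin subunit, had 253 ± 30.0, 237 ± 40.0 and 234 ± 32.7 CPM. Smchd1, a silencer of the clusters, had 146 ± 14.0, 144 ± 24.5 and 120 ± 17.6 CPM, and Dnmt3b, which methylates their promoters, 11.7 ± 1.14, 10.1 ± 0.793 and 10.6 ± 1.39 CPM. The lowest p-value was that of Pds5a, a cohesin regulator, in homozygous against wild type libraries (log2 fold change -0.31, SE 0.15; edgeR's quasi-likelihood test, unadjusted p = 0.0635), followed by the cohesin subunit Stag1 (-0.28, SE 0.15; -0.17 without homozygous replicate 4).

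Of 16 genes for signalling and cleavage of protocadherins, such as the kinase Ptk2, which binds their constant part, and the protease Adam10, which cleaves them, 0 passed or had an unadjusted p-value under 0.05 in edgeR's test, and the medians were 0.026, 0.037 and -0.037 on the log2 scale in the 3 comparisons in the order given above. The lowest p-values were those of Axin1 (0.20, SE 0.12) in homozygous against wild type, Fyn (0.26, SE 0.20) in heterozygous against wild type and Ptk2 (-0.17, SE 0.10) in homozygous against heterozygous libraries, given as log2 fold changes. Of these, Axin1 had 0.12 in the blocked fit of the 2 genotypes alone, and Fyn 0.13 without wild type replicate 1, 0.14 without heterozygous replicate 1 and 0.42 without wild type replicate 3. Genes beside or between the clusters served as a comparison of place. Of these 16 genes 14 were tested (Slc25a2 was too low and Diaph1 was not analysed here), 0 passed or had an unadjusted p-value under 0.05 in edgeR's test, and their medians were 0.071, 0.034 and 0.045. The low genes Dnd1 and Rell2 had the largest log2 fold changes of the list in homozygous against wild type libraries (0.56, SE 0.39, and 0.46, SE 0.31). That of Dnd1 was 0.32 without wild type replicate 3, and that of Rell2 0.28 without homozygous replicate 2. Taf7, which lies between the beta and gamma clusters, had 21.68 ± 2.14, 21.8 ± 1.82 and 21.4 ± 1.55 CPM in wild type, heterozygous and homozygous libraries (SD, n = 3, 4 and 4). These means lay closer together than the libraries of a genotype. Slc25a2, in the same interval, was listed at 0 to 0.612 CPM.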

How the data were processed

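Per the labels, polyA-selected directional libraries were made from total RNA of the whole MOE. Per the submitters' notes and the methods of the study, reads were trimmed (Trimmomatic, version 0.36) and mapped to mm10 (HISAT2, version 2.1.0), and the authors deposited raw read counts per gene (featureCounts, Subread version 1.6.2). A normalised signal for each gene was deposited beside them, for which DESeq2 (version 1.20.0) is named, and was not used for any value here. Which annotation was counted, with which strand setting, and how reads on several genes or positions were treated is not given in the sources used here. Each table had 0 columns of no sample.

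Raw counts were tested with edgeR (version 4.0.16, R version 4.3.3): TMM scaling, filterByExpr by genotype, the quasi-likelihood test with genotype as the only factor in a fit to all 11 libraries, and Benjamini-Hochberg adjustment over 16574 genes with a threshold of 0.05. Scripts were tested on simulated data. CPM uses TMM-scaled totals. Coordinates and exons came from GENCODE release M21 (mm10), which held 58 of the 59 symbols or their gene under another name (Pcdha10 by its position), and Python (version 3.11.15) was used for exon and sequence comparisons. Groups came from the genotype labels.

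The members, gene lists and tests were chosen with earlier results of these data known. Members named with values were all C-type genes, the 3 highest and 2 lowest by mean CPM of the alpha, beta, gamma A and gamma B genes, and the 4 with the lowest unadjusted p-value per comparison. From each other list the 2 genes with the lowest p-value per comparison and a few preset genes qualified. Pcdhb3, Pcdhb7, Pcdhb12, Pcdhb20, Pcdhga4, Pcdhga6, Pcdhga10 and Pcdha8 were named after their values were seen. Alternatives were RLE scaling, no filter, DESeq2 (version 1.42.0), only the 2 genotypes compared, a replicate block, the library set (the sign of the first principal component) as a covariate, and leaving out each library. A block in the fit of homozygous and wild type libraries only was added after seeing the data. Replicate numbers shared by the labels were checked by correlating deviations from group means over the tested genes. For homozygous and wild type libraries this gave 0.33, 0.42 and 0.40. Libraries of these 2 genotypes with the same number lay in the same library set, so pairing and library set cannot be told apart. No source says what the numbers share. The values were negative in the other 2 comparisons, where libraries with the same number lay in different sets.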

Additional observations from a re-analysis of the deposited data

Results flagged for a closer look

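Of 84 groups of 4 libraries examined (members and sums, heterozygous and homozygous), 7 held a library far from the others of its group. Chance gives this for about 1 in 20 groups. In 5 of the 7 the library was heterozygous replicate 3, the highest of its group. It had 4.83 CPM of Pcdha12 (others 1.82 to 2.20), 20.5 CPM of Pcdhac2 (others 14.9 to 15.4) and 11.1 CPM of Pcdhga11 (others 4.71 to 5.65). In the same library the gamma genes without Pcdhgc3 summed to 132 CPM (others 93.3 to 95.7), and all 59 members to 423 CPM (others 354 to 362). This library also had the highest sums of immature OSN markers (2658 CPM) and neuronal precursor markers (998 CPM) of all 11 libraries. The part of these cells in the protocadherin levels was not tested. The other flags were Pcdhga7 in homozygous replicate 4, which at 7.40 CPM lay below the others (9.98 to 10.4), and the sum of the gamma B genes in homozygous replicate 1, which at 49.9 CPM lay above the others (37.2 to 39.2).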

How the results depend on the processing

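In each of the 52 combinations of comparison and alternative, 0 members had an adjusted p-value under 0.05. The number of members with an unadjusted p-value under 0.05 moved. For homozygous against wild type libraries (3 members) it was 5 (9.26%, beside 6.83% of all genes) once the library set was a covariate, and 1 (without homozygous replicate 2, 1.85% beside 1.92%) to 5 (without wild type replicate 3, 9.26% beside 4.25%) when 1 library was left out. For heterozygous against wild type (3) it was 5 with the library set (beside 4.55% of all genes) and 1 (without heterozygous replicate 4, beside 3.24%) to 4 (without heterozygous replicate 2, beside 2.05%) when 1 library was left out. For homozygous against heterozygous (2) it was 1 with RLE scaling, no filter or only these genotypes (beside 0.412% to 0.954% of all genes), and 0 (without heterozygous replicate 1 or homozygous replicate 1, beside 1.09% and 1.07%) to 5 (without heterozygous replicate 3, beside 0.805%) when 1 library was left out. The cause was not tested. Under DESeq2 3, 3 and 2 members had an unadjusted p-value under 0.05, and 8, 3 and 2 genes of all tested passed, of which 0 were members and 4, 0 and 2 were deleted Taar genes.

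With the replicate block the counts of such members were 0, 1 and 0 in the 3 comparisons, beside 1.73%, 1.44% and 0.259% of all genes, and the log2 fold change of Pcdhb1 in homozygous against wild type libraries was -0.48 (unadjusted p = 0.0507 in the edgeR fit). In the blocked fit of these 2 genotypes alone, where libraries with the same number share a library set, its value was -0.57 (edgeR, unadjusted p = 0.0109). There 39 genes passed, of which 0 were members.

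The signs of Pcdhgc3 and Pcdhac2 in homozygous against wild type libraries turned when wild type replicate 3 was left out, with log2 fold changes from -0.0068 to 0.35 and from -0.034 to 0.14 over the fits that lacked 1 library. The beta median ran from -0.28 to -0.11 in homozygous against wild type libraries when 1 library was left out, and -0.28 to -0.20 under the other alternatives. Low counts limit single members, since 5 of 59 were not tested and Pcdhgc5 rested on 173 counts.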
